A study of Oryza sativa with 3 samples.

Results

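Genes of the leaf cytoskeleton were described in rice: tubulins, actins, actin-depolymerizing factors (ADF) and formins (FH). Members were the probe sets assigned to a single gene whose symbol or synonym was a numbered tubulin, actin, ADF, formin, profilin or MAP65 name, and RAC names were taken only where the gene was also named as an actin. This gave 45 probe sets of 32 genes, out of 57194 rice probe sets on the array, of which 22436 were annotated to 1 gene. The members fell into 8 beta-tubulin genes, 1 alpha-tubulin gene, 4 actins, 9 ADF genes and 10 formins. The annotation held 36 genes with such names, and ADF3, FH9, FH14 and FH18 had no probe set assigned to them. No gene carried a matching profilin or MAP65 name, so those families are not analysed here.

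Leaf RNA came from 1 group of plants of the cultivar Kitaake, a fast-cycling japonica rice, grown in a greenhouse for 6 weeks. Of this group 3 replicates, raised together, were measured on 1 Affymetrix array each, with no treatment, genotype or time contrast. The comparison the design allows is therefore between replicates of the same leaf tissue, and the labels do not say how many plants a replicate held. Values are log2 signals per probe set, as deposited, and errors are SDs over n = 3 arrays, which limits the precision of each value. Probes differ in how strongly they bind their transcript, so levels are not ranked between genes, and fewer expressing cells cannot be told apart from less RNA per cell.

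Microtubules are hollow filaments built from dimers of alpha- and beta-tubulin, and in expanding leaf cells the cortical array guides the deposition of cellulose. Actin filaments carry organelles and vesicles through the cell. ADF proteins bind and sever older actin filaments, while formins nucleate new ones and in plants can also bind microtubules. The isotypes within a plant tubulin or actin family have very similar coding sequences, so probe sets ending in _x_at or _s_at, which can also match other transcripts, are pointed out below.

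Leaf identity was checked against marker genes. All 7 measured mesophyll markers, among them light-harvesting, plastocyanin and Rubisco activase genes, had mean signals from 13.29 to 14.66. Of 6 measured genes of dividing cells, PCNA alone was above background, at 8.87 ± 0.08, and the B-type cyclins and CDKB2-1 were below it. Of 5 measured shoot meristem genes 2 were above background (FON1 and WOX4), and of 9 genes matched to anther names 3 were (MSP1, GAMYB and a CP1 synonym that belongs to a cystatin). Background was the 95th percentile of the 64 reporter probe sets of each array, at 5.64, 5.60 and 5.77 in replicates 1, 2 and 3. Over all genes, 74.3% were above it on all 3 arrays.

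Most members gave signal in the leaf. Of the 45 member probe sets, 34 were above background on all 3 arrays, against 71.1% of all probe sets annotated to 1 gene and 47.1% of all probe sets. The other 11 were below background on every array. Counted by gene, with the chosen probe set of each, 25 of 32 members were above background, against 74.3% of all genes. The share of members with signal was thus near that of annotated genes at large.

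**Figure D1:**
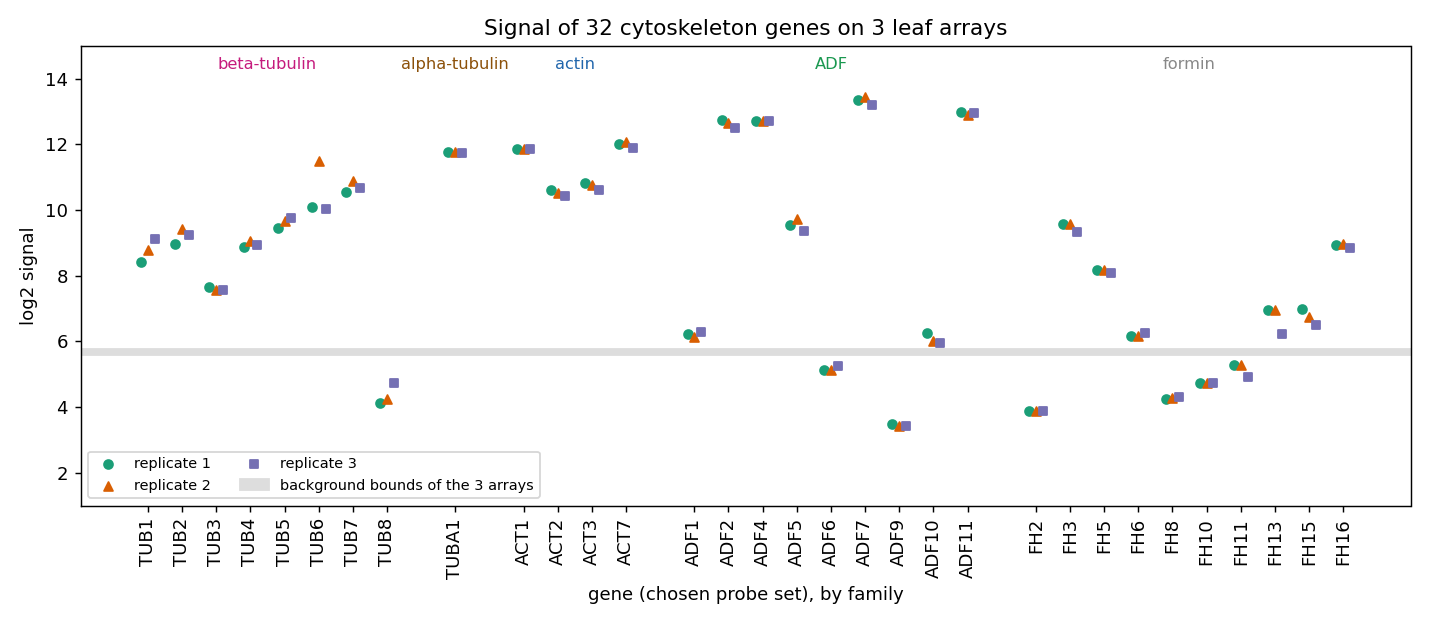
Log2 signal (vertical axis) of the chosen probe set of each of 32 genes, grouped by family along the horizontal axis, with 1 symbol for each of the 3 arrays and a grey band for the background bounds. In most genes the 3 symbols nearly coincide, while TUB6 in replicate 2 stands at 11.48, away from 10.10 and 10.03.

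Among the microtubule genes, 7 of 8 beta-tubulins and the single alpha-tubulin were above background, against 74.3% of all genes. TUBA1, the alpha subunit, had signals of 11.76, 11.76 and 11.74 in replicates 1, 2 and 3. TUB7 had 10.54, 10.88 and 10.68, and its second probe set, with the suffix _s_at, had 9.82, 10.02 and 9.92. Both TUB7 probe sets were lowest in replicate 1 and highest in replicate 2. TUB2 showed the same order, with 8.98, 9.44 and 9.24. TUB4 had 8.88, 9.05 and 8.92 by its chosen probe set, a narrower span than in TUB2. TUB1 and TUB5 were instead highest in replicate 3. TUB1 had 8.43, 8.79 and 9.11, a range of 0.69, and TUB5 had 9.45, 9.66 and 9.75. TUB3 varied by 0.10 in its chosen probe set, with 7.66, 7.56 and 7.58. TUB8, which in rice is known mainly from anthers, was the beta-tubulin below background on every array, with 4.13, 4.23 and 4.73, so its spread is that of a dim probe set.

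TUB6 (LOC4338790), another beta-tubulin, was the member in which the replicates differed most. Replicate 2 read 11.48 for this gene, while replicates 1 and 3 read 10.10 and 10.03. Replicate 2 was 2.61-fold above replicate 1 and 2.74-fold above replicate 3, while replicates 1 and 3 differed by 0.07. The range of 1.45 made TUB6 the 1 member of 45 that spanned at least 2-fold, against 0.972% of all probe sets and 0.988% of those above background. The next largest range among members was 0.73, in FH13. Of 2563 probe sets whose mean signal lay within 0.5 of that of TUB6, 3 had a larger range, and their median SD was 0.07 against 0.82 for TUB6. Over all probe sets the range ranked 135th, and the excess of replicate 2 over the average of replicates 1 and 3 ranked 17th. Without replicate 2, 0 members spanned 2-fold.

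The spread of single probe sets was tested with the limma variance test, fitted over all 57194 probe sets with Benjamini-Hochberg adjustment. TUB6 did not pass it (unadjusted p = 0.085, adjusted p = 0.32), and 0 of 45 members passed. The test called 0 of all 57194 probe sets, so it could not single out TUB6 or any member. Its outcome therefore shows nothing about their stability. At an unadjusted p under 0.05 there was 1 member (TUB8) of 45, against 8.64% of all probe sets. Many probe sets had identical values on several arrays, and the effect of such ties on this test was not tested. TUB6 was measured by 1 probe set, so no second probe set bears on its value in replicate 2. The p-values measure only the spread between these arrays, which may be technical.

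**Figure D2:**
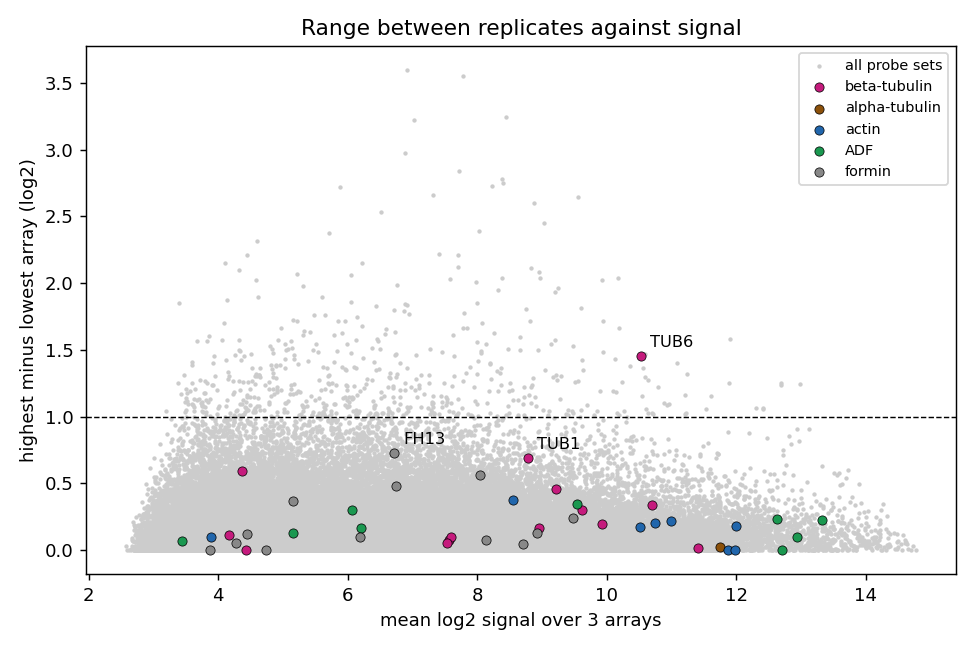
Highest minus lowest array (vertical axis, log2) against mean log2 signal (horizontal axis) for all probe sets in grey and for members coloured by family, with a dashed line at 2-fold. TUB6, at a mean of 10.54 and a range of 1.45, is the 1 member above the line, and FH13 and TUB1 lie below it at 0.73 and 0.69.

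The beta-tubulin probe sets tended to be low in replicate 1. Set against the average of replicates 2 and 3, replicate 1 was lower in 12 of 14 probe sets and higher in 1, against 34.9% lower and 40.9% higher among all probe sets. The remaining 1 was equal on all arrays, against 24.2% of all probe sets. The 12 hold several probe sets each of TUB1, TUB3, TUB4 and TUB7, and 2 below background (TUB8 and 1 of TUB1). They also hold TUB6, where replicate 1 (10.10) was above replicate 3 (10.03) and only replicate 2 was higher. In 9 of the 14 replicate 1 was the lowest array outright, against 11.6% of all probe sets, and among the 11 above background this held for 8, against 12.6% of all probe sets above background. Probe sets of TUB1, TUB2, TUB3, TUB4, TUB5 and TUB7 were among these. TUB4 and TUB7 were counted by several probe sets each, some of the _x_at or _s_at kind, so these are not counts of separate genes. The TUB3 probe sets disagreed within small ranges. Its chosen one (range 0.10) was highest in replicate 1, and another, with 7.53, 7.58 and 7.60 in replicates 1, 2 and 3, was lowest there. The median difference was -0.13 in replicate 1, 0.03 in replicate 2 and 0.01 in replicate 3, against 0.00 on each array over all probe sets. Without the _x_at and _s_at probe sets the replicate 1 median was -0.24. In replicate 2 the median was 0.13 without replicate 3 and 0.00 without replicate 1, and in replicate 3 it was 0.08 without replicate 2 and 0.00 without replicate 1, so both rest on which arrays are compared. Among the 11 beta-tubulin probe sets above background the medians were -0.15, 0.06 and -0.00518 in replicates 1, 2 and 3. Over all probe sets above background they were 0.01, 0.02 and -0.05. These are descriptions of 3 arrays with no test.

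Spike controls and some marker genes differed between the arrays as well. The 36 probe sets of poly-A spike controls, added to the RNA before labelling, all read higher in replicate 2 than on average in replicates 1 and 3 (median difference 0.29), and 27 read lower in replicate 1 than on average in replicates 2 and 3 (median difference -0.10). In replicate 3 as many as 35 of the 36 read lower than on average in replicates 1 and 2 (median difference -0.19), where the beta-tubulin median was 0.01. The summed signal of the 6 measured genes of dividing cells, on the log2 scale, was 9.08, 9.23 and 9.14 in replicates 1, 2 and 3. It is nearly the value of PCNA, with 8.81, 8.97 and 8.85, since the other 5 genes were below background. That of the 5 meristem genes was 9.40, 9.13 and 8.99, and rests mostly on FON1, with 9.11, 8.79 and 8.62. For the 7 measured mesophyll markers the summed signal was nearly equal, at 16.96, 16.98 and 16.98 in replicates 1, 2 and 3. The range was 0.16 in PCNA and 0.49 in FON1, against a median range of 0.16 over all probe sets above background. The part of these differences in the beta-tubulin values and in the TUB6 value was not tested.

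**Figure D3:**
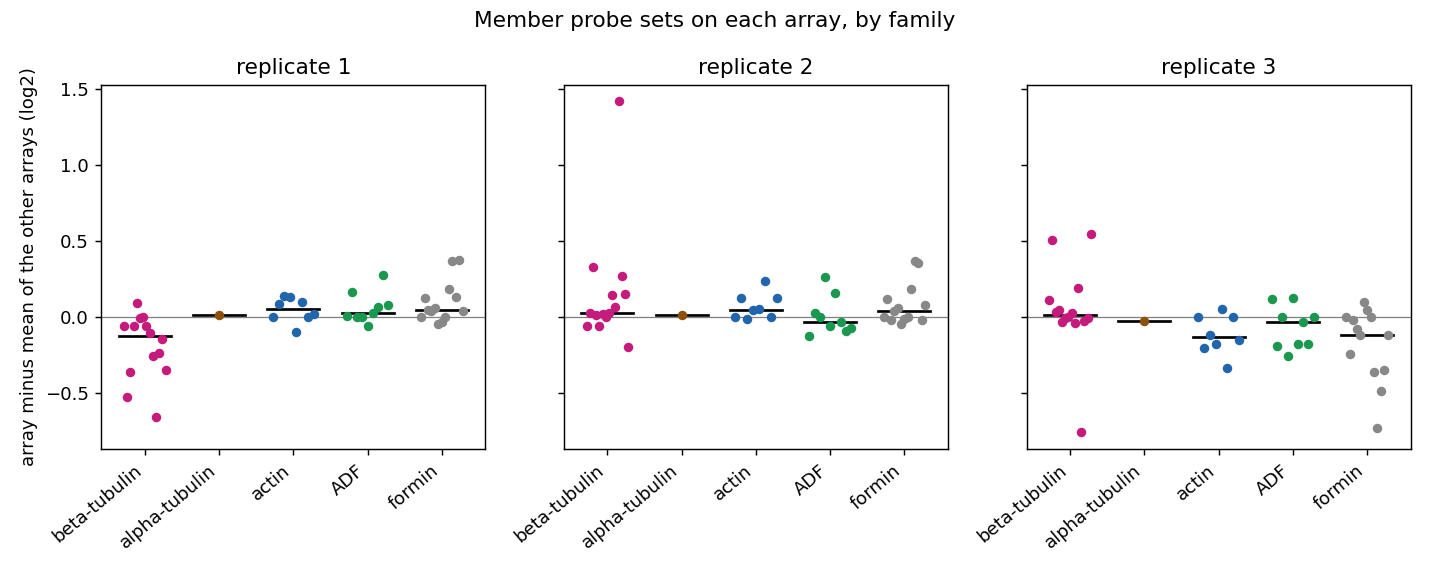
Difference between each array and the average of the remaining arrays (vertical axis, log2) for the 45 member probe sets, by family, with 1 panel per replicate, and bars for family medians. The beta-tubulin points lie mostly under 0 in replicate 1 (median -0.13), with TUB6 at 1.42 in replicate 2, and the actin and formin medians in replicate 3 lie at -0.14 and -0.12.

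The members outside the beta-tubulins were placed otherwise. Replicate 3 lay under the average of replicates 1 and 2 in 21 of their 31 probe sets, against 44.2% of all probe sets. Among the 23 above background, 16 had replicate 3 as the lowest array outright and 0 had replicate 1. Over all probe sets above background these shares were 50.4% and 12.6%, so a low replicate 3 is the common pattern of the bright probe sets on these arrays. Of the 11 beta-tubulin probe sets above background, 1 (TUB6) was lowest in replicate 3.

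All 4 actin genes were above background, against 74.3% of all genes. None spanned 2-fold, against 0.972% of all probe sets that did. ACT1, the gene whose promoter is widely used to drive transgenes in cereals, had 11.87 on each of the 3 arrays by its chosen probe set. Its _s_at probe set had 11.05, 11.08 and 10.86 in replicates 1, 2 and 3, so the value that looked constant was not matched by the second one. A tie of this kind was seen in 6 of 45 member probe sets, against 15.3% of probe sets annotated to 1 gene and 24.2% of all probe sets, and does not mean an exact measurement. ACT7 had 12.02, 12.09 and 11.90 by its chosen probe set, and its _x_at probe set had 11.98 on all arrays. ACT2 had 10.61, 10.51 and 10.44, and ACT3 had 10.83, 10.77 and 10.63. In ACT2, ACT3 and the chosen probe set of ACT7 replicate 3 was the lowest, and no actin probe set ranged over more than 0.38. Over actin probe sets the median difference in replicate 3 was -0.14. In those above background it was -0.15, against -0.05 over all probe sets above background.

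The ADF genes, which sever actin filaments, had 7 of 9 members above background, against 74.3% of all genes. ADF7 read 13.34, 13.43 and 13.21 in replicates 1, 2 and 3. ADF9 read 3.48, 3.41 and 3.41, below background on each array like ADF6. As probe-set signals, which set no order between genes, the family ran from 3.43 to 13.33, with a median of 9.54, or 7.87 without ADF4, whose only probe set is of the _s_at kind. ADF5 had the largest SD of those above background, 0.17, with 9.54, 9.71 and 9.37. ADF4 gave 12.71 on all 3 arrays, another tie. No ADF probe set ranged over more than 0.35. A range under 2-fold is the common case on these arrays, since 0.972% of all probe sets spanned at least 2-fold.

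The formins, which nucleate actin filaments, had 6 of 10 genes above background, against 74.3% of all genes. Probe-set signals of the formin genes ran from 3.87 to 9.49 with a median of 6.45. FH2 read 3.87 on all arrays, and FH8, FH10 and FH11 were also below background. FH3 read 9.57, 9.57 and 9.33 in replicates 1, 2 and 3. Both of its probe sets are of the _x_at kind, so its value may include other transcripts. FH13 had the largest SD, 0.42, with 6.96, 6.96 and 6.23, and its second probe set, of the _x_at kind, had 8.13, 8.27 and 7.71. Both FH13 probe sets were lowest in replicate 3, with ranges of 0.73 and 0.56. FH5, known in rice as BUI1 and required for straight, fully elongated internodes, is outside the rule for named genes and had 8.14 ± 0.04. In 9 of 13 formin probe sets replicate 3 lay under the average of replicates 1 and 2, against 44.2% of all probe sets. The median difference was -0.12. In formin probe sets above background it was -0.18, against -0.05 over all probe sets above background.

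Probe sets of the same gene often differed in level. Of the 32 genes 10 had several probe sets, and in 4 of these they lay on both sides of the background bound. ACT3 was at 10.74 and, by an _x_at probe set, at 8.56, and at 3.88 by the third. TUB1 was at 8.78 and 4.17, and TUB4 at 8.95, 4.42 and, by an _x_at probe set, 7.53. FH6 was at 6.18, with 6.15, 6.15 and 6.25 in replicates 1, 2 and 3, and at 4.45, with 4.49, 4.49 and 4.37. TUB3 stayed above background throughout, but its _x_at probe set read 11.41 where the others read 7.60 and 7.57. The ACT7 probe sets, at 12.00 and 11.98, were the closest pair. For TUB1, TUB4, ACT3 and FH6 the presence of signal therefore depends on which probe set is read.

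**Figure D4:**
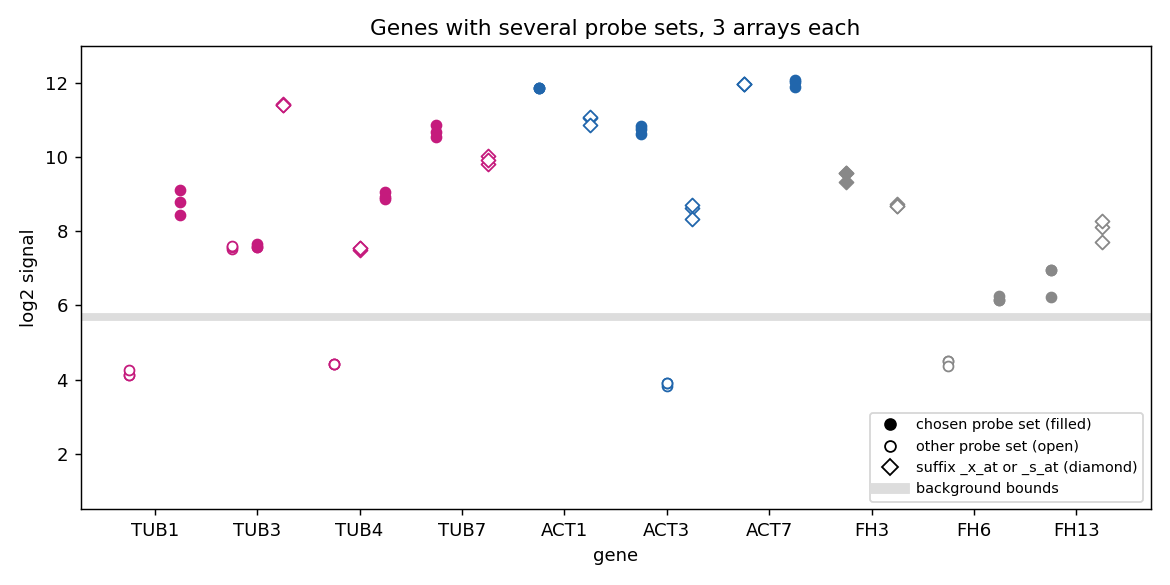
Log2 signal (vertical axis) on 3 arrays for every probe set of the 10 genes with several, filled for the chosen one and diamonds for _x_at or _s_at, with the background bounds in grey. TUB1, TUB4, ACT3 and FH6 have a probe set under the band, and the TUB3 diamond stands at 11.41 above its circles near 7.6.

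Other genes with names linked to the cytoskeleton were found by symbol or synonym, which does not show where their proteins act. Of 16 measured genes 14 were above background, against 74.3% of all genes. None spanned 2-fold, against 0.972% of all probe sets that did. All 6 measured actin-related proteins were above background, with ARP4 at 10.88 ± 0.02 and ARP8 at 10.87 ± 0.09. The name alone does not place these proteins in the cytoskeleton, and ARP4 is known from nuclear chromatin complexes. Of 4 villins, which bundle actin, 2 were above background (VLN2 at 9.66 ± 0.08 and VLN5 at 9.07 ± 0.09). Gamma-tubulin TUBG2, which nucleates microtubules, had 9.30, 9.35 and 8.98 in replicates 1, 2 and 3. It was lowest in replicate 3, unlike most beta-tubulins. The 5 genes named MAP70 or MOR1, microtubule-associated proteins described in Arabidopsis, were all above background. MOR1 was at 9.81 ± 0.04, and MAP70.3 read 9.11 on all 3 arrays, a tie that does not mean an exact measurement.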

How the data were processed

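Affymetrix rice arrays of 3 leaf samples were analysed as deposited. Each deposited value is the log2 signal of a probe set, made with RMA per the submitters' processing notes. The RMA version and settings were not stated there. As usually run, RMA brings arrays to a common distribution and combines probes by median polish, which can return the same value on several arrays: replicates 1 and 2 were tied (within 1e-09) in 47.7% of probe sets. Column medians were all 5.63. Control probe sets (187) were set aside. The platform annotation gave 1 gene to 22436 probe sets, several to 95 and none to 34663. Names and synonyms came from a RefSeq table of assembly ASM3414082v1, and no coordinates or sequences are given.

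Where a gene had several probe sets, those ending in _x_at or _s_at were passed over if another existed, and the brightest remaining one was chosen. Spread between arrays was fitted with limma 3.58.1 (R 4.3.3) as an intercept model with a trended, robust eBayes prior. An upper-tailed F test compared each residual variance with that prior, using the prior degrees of freedom of the bulk of probe sets, at an adjusted p of 0.05. The test was checked on simulated data with normal noise, which holds no ties. Other steps used Python 3.11.15 with pandas 2.3.3, numpy 2.4.6, matplotlib 3.10.9 and scipy 1.17.1.

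Values on every array are given for all tubulins and actins, and in the other families for the highest, the lowest and the most variable gene above background, with genes whose probe sets lie on both sides of the bound and genes that span 2-fold. Of each list of genes with other names linked to the cytoskeleton up to 2 with the highest means are named. A wrong match (the xylanase inhibitor XIP-I among myosin names) was left out, and another of the lists is not reported here. The members and lists were chosen with earlier results of these data known. Alternatives were quantile normalization again, centring, leaving out each replicate, other background bounds, other probe-set rules, dim-signal filters and another variance prior.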

Additional observations from a re-analysis of the deposited data

Results flagged for a closer look

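Rice actin was also measured by 7 control probe sets of the array that the annotation assigns to no gene and that none of the comparisons above uses. All 7 were above background on all arrays. The 3' controls had means of 11.56, 11.12 and 10.89, those of the middle region 9.54 and 9.51, and the 5' controls 8.56 and 7.65. Replicate 3 was the lowest array in 5 of the 7, against 50.4% of all probe sets above background. The other 2 were equal on all arrays, against 13.7% of all probe sets above background. The widest spread was in a 5' control, with 8.76, 8.65 and 8.26 in replicates 1, 2 and 3.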

How the results depend on the processing

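No paired analysis was possible because the series has 1 group. Of 112 values under alternatives, for 17 results, 102 stayed within the spread between replicates or within 1.5 times a count, and 10 moved. The values under centring equal the main ones, because the column medians were already the same, so they are no check. Some others could not change either, such as alpha-tubulin, with its single probe set, under other probe-set rules. No value had a call to reverse, but 4 untested differences changed sign. The TUB6 difference in replicate 1 was -0.66 and became 0.07 without replicate 2, a move under the SD of 0.82 of TUB6, which itself comes from replicate 2. With quantile normalization again the median in replicate 2 of beta-tubulins turned from 0.03 to -0.00262 and that in replicate 3 of all members from -0.03 to 0.00686. Among probe sets above background the beta-tubulin median in replicate 3 turned from 0.01 to -0.00518. The count of member probe sets above background was 34 of 45 without any 1 replicate, and 30 of 45 with the bound at the 99th percentile. It was 24 when the 10 _x_at and _s_at probe sets were left out. With each gene as the mean of its probe sets, 24 of 32 genes were above background. The test for excess spread called 0 of the probe sets tested under each alternative, so its 0 members show nothing about stability. In 1 alternative the tested probe sets were only the 28582 above the median signal. The unadjusted p of TUB6 in this limma test ran from 0.031 (quantile normalization again) to 0.31 (without replicate 2), with adjusted p from 0.26 to 0.88. Without each replicate in turn, the count of members spanning 2-fold ran from 0 to 1, the beta-tubulin median in replicate 2 from 0.00 to 0.13, that in replicate 3 from 0.00 to 0.08, and the ADF median signal from 9.45 to 9.63. As a mean over members the beta-tubulin difference in replicate 2 was 0.15, a mean that includes TUB6. Without _x_at and _s_at probe sets the beta-tubulin median in replicate 1 was -0.24, and the median signals of ADF genes and formins were 7.87 and 6.18. With each gene as the mean of its probe sets the median signals of actins and formins were 10.98 and 6.03. The cause of these moves was not tested beyond the changed probe sets and arrays. Where signal lies near background, as in TUB8, small differences cannot be read.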
